A study of Ovis aries with 40 samples.

Results

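The data describe 8 genes of the hypoxia response and of its link to fuel use in the longissimus muscle (LM, also called LD), the long loin muscle, of Poll Dorset sheep. The named genes were PFKFB3, EGLN1, HIF1A, EPAS1, VEGFA, HK2, PDK4 and ADM. A probe set, the group of short probes that reports 1 transcript, was taken when its annotation gave a single gene symbol and that symbol was one of the 8. This rule found 15 probe sets for 7 of the genes, out of 9155 genes with a symbol on the array, and HK2 was not analysed here. Where a gene had several probe sets, the one with the highest mean signal is reported first and the others are given beside it. All 7 genes were among the 6360 genes whose mean signal reached the detection limit used here, 61.8 signal units, which was the median of the mean signals of the probe sets.

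One array was hybridised per animal, with total RNA of 40 animals. The high muscling group held 19 progeny of sires with a high estimated breeding value for eye muscle depth, the depth of this muscle over the loin, and the low muscling group held 21 progeny of sires with a low value. The high muscling animals came from sire 11 (8 animals), sire 2 (7) and sire 7 (4), and the low muscling animals from sire 16 (8), sire 17 (5) and sire 5 (8). All animals were 78 weeks old and were raised under the same conditions. Each sire contributed progeny to 1 muscling group, so a muscling difference is a difference between 3 and 3 sire families, and the breeding value belongs to the sire rather than to the sampled animal. The array carried bovine probes and the RNA was ovine, so a signal also depends on how well each probe matches the sheep sequence, and signals of different genes cannot be ranked against each other.

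Hypoxia-inducible factors are transcription factors made of an oxygen-regulated alpha subunit, HIF1A or EPAS1 (HIF-2 alpha), and a stable beta subunit. In the presence of oxygen the prolyl hydroxylase PHD2, encoded by EGLN1, marks the alpha subunits for destruction, and EGLN1 is itself one of their target genes. Among the other targets, PFKFB3 makes the activator of glycolysis fructose 2,6-bisphosphate, VEGFA is the main growth factor of capillary endothelium, and ADM (adrenomedullin) is a vasodilator peptide. The kinase PDK4 switches off pyruvate dehydrogenase, so that muscle burns fat rather than glucose.

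The markers of skeletal muscle were at the top of the signal range in the animals of both groups, with a mean signal of 24171 for ACTA1, 29156 for CKM and 25057 for MYL1, where the highest single signal on any array was 36464. The correlation of log2 signals between arrays had a median of 0.92 and ranged from 0.87 to 0.95. Sire accounted for 0.814 of the spread of the first principal component, which held 14.5% of the variance. The progeny of sire 11 lay at 13.4 to 28.1, apart from those of sires 16 and 5 at -22.8 to -3.90. The other families overlapped, with sire 2 at -3.88 to 11.2, sire 7 at 0.09 to 8.48 and sire 17 at -11.8 to 23.4. The log2 ratio of the 3′ to the 5′ GAPDH control probe sets, a sign of RNA quality, had a median of 0.30 in the high muscling group, 0.24 in the low muscling group and 0.37 in the progeny of sire 11. The same ratio of beta-actin had medians of -0.0041 in the high and -0.0044 in the low muscling group and -3.2e-05 in the progeny of sire 11. One animal of the low muscling group, progeny 65 of sire 16, carried the highest signal of all 40 animals at 10 of the 22 detected immediate early and stress genes. Its HSPA1A signal, a heat shock protein, was 16867 against 1330 to 3445 in the other 39 animals, and its ATF3 signal was 10818 against 112 to 1640. The muscling and sire fits of genes and the correlations among members and with list genes were also run without this animal. Where that ended a call or moved a value by over 1.5 times, the value without it is given. The values for markers, RNA quality, likeness of genes, pairs of sires, dimmer probe sets and single families were not computed without it.

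The genes were chosen by their role and by their signal differences between muscling groups, which were already known, so that difference is described here and not tested. Of the 7 measured genes, 2 passed an adjusted p of 0.05 in the fit over all detected genes, PFKFB3 and EGLN1, both with the higher signal in high muscling. In the same fit 495 of 6360 genes passed, which is 7.78% (2.28% higher and 5.5% lower in high muscling), and nothing is read from the members' count, since it shaped the choice. In whole muscle, fewer cells of a type and less RNA per cell cannot be told apart. The tests of the members concern the variation between sires within a muscling group and between animals within a sire family, which is separate from the muscling difference. Whether earlier results on sires also shaped the choice is not recorded here. Correlations with sire means kept hold the muscling difference and are given without a p.

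**Figure D1:**
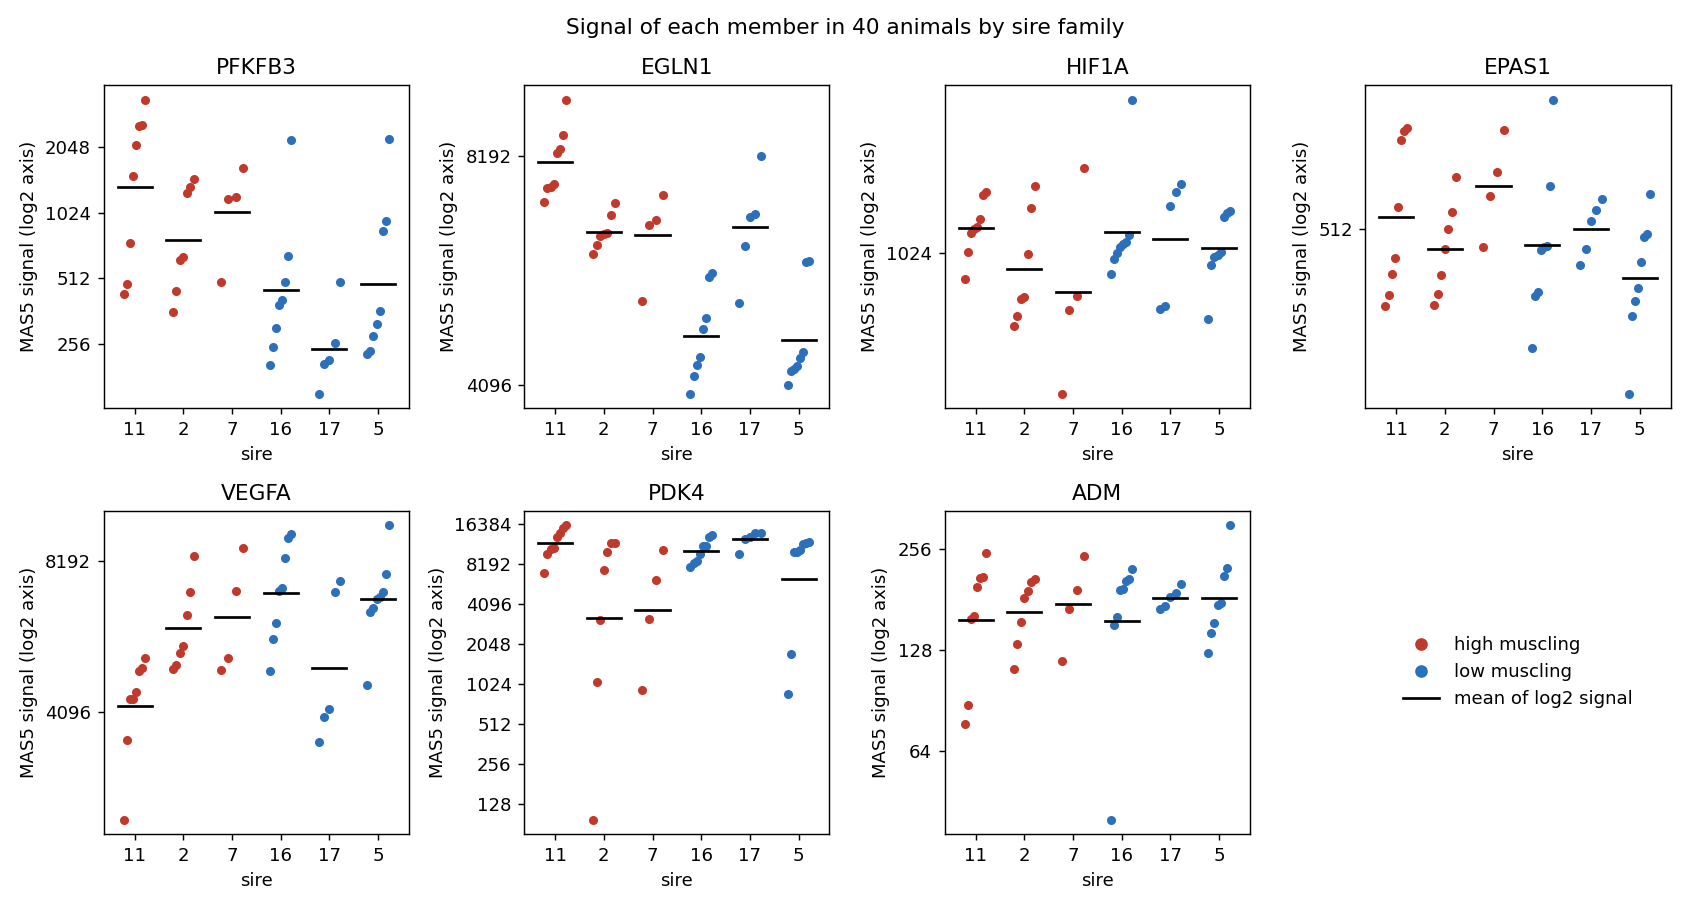
MAS5 signal (log2 axis) of the highest-mean probe set of each measured gene, 1 point per animal, by sire family, with high muscling in red, low muscling in blue and a black line at the mean of the log2 signals. PFKFB3 and EGLN1 lay higher in the high muscling families, apart from the EGLN1 signals of sire 17, and a few animals of sires 2, 7 and 5 had PDK4 signals far below the rest.

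The oxygen-regulated alpha subunits had closely similar signals in both muscling groups. HIF1A signal (gene ID 281814) ran from 630 through a median of 1026 to 1370 in high muscling and from 816 through 1044 to 1734 in low muscling. The ranges overlapped almost wholly, and the difference of high minus low was -0.10 ± 0.12 on the log2 scale (fitted value ± SE, 19 and 21 animals). The highest HIF1A signal, 1734, belonged to progeny 65 of sire 16, and the next highest in its family was 1088. Without that animal the difference was -0.07. EPAS1 signal (gene ID 282711) ran from 443 through 512 to 620 in high muscling and from 375 through 493 to 654 in low muscling, a difference of 0.09 ± 0.08. Neither gene passed the test of differences between sires within muscling groups (limma F test, adjusted p = 0.483 for HIF1A and 0.538 for EPAS1), in which 22% of all detected genes passed. By the brightest probe set of each of the 7 genes, EPAS1 varied least between animals, with a mean signal of 506 ± 61.6 (SD, n = 40). The SD of its log2 signal was 0.17 in that set and 0.32 in its other set, beside 0.27 for HIF1A.

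A second, dimmer probe set of EPAS1, with a mean signal of 231, gave another picture of the sires. It passed the sire test when all 24016 probe sets other than controls were tested together (adjusted p = 0.00516, where 7.92% of the probe sets passed), while the brighter set did not (adjusted p = 0.720). Its mean log2 signal was 8.23 in the progeny of sire 11 and between 7.55 and 7.88 in the other 5 families. The muscling difference was 0.07 ± 0.13 in the dimmer set. Across the 40 animals, with sire means removed, both sets correlated at r = 0.21, so that the sire pattern of EPAS1 depended on the probe set read.

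EGLN1, which encodes the oxygen sensor PHD2, had a higher median signal in high muscling, with 1 low muscling family, sire 17, at the level of the high muscling families. Its signal (gene ID 534075) ran from 5284 through a median of 7107 to 9700 in high muscling, and from 3989 through 4857 to 8175 in low muscling. The groups overlapped, but all 19 high muscling animals lay above the low muscling median, 20 of the 21 low muscling animals lay below the high muscling median, and 13 of them lay below every high muscling animal. The ratio of medians was 1.46 and the difference of high minus low was 0.44 ± 0.10. Of the 8 low muscling animals inside the range of the high group, 4 were progeny of sire 17, 2 of sire 16 and 2 of sire 5.

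By sire family the EGLN1 medians were 7893 for sire 11, 6458 for sire 2 and 6698 for sire 7 in high muscling, and 4660 for sire 16, 6802 for sire 17 and 4391 for sire 5 in low muscling. The 5 progeny of sire 17 had signals of 5240, 6240, 6802, 6865 and 8175, and the 16 other low muscling animals lay between 3989 and 5958. The sire differences within muscling groups passed the test (limma F test, adjusted p = 8.33e-04). Among the low muscling families, the progeny of sire 17 were higher than those of sire 16 by 0.47 ± 0.11 on the log2 scale (adjusted p = 0.00466, where 9.76% of genes passed) and higher than those of sire 5 by 0.49 ± 0.11 (adjusted p = 0.00226, where 12% passed). Sires 16 and 5 differed by 0.02 ± 0.10 (adjusted p = 0.986). Among the high muscling families, sire 11 exceeded sire 2 by 0.30 ± 0.10 (adjusted p = 0.0358, where 15.1% passed), and exceeded sire 7 by 0.32 ± 0.12, which missed the threshold (adjusted p = 0.0774). The level of EGLN1 in the progeny of sire 17 was in this probe set within the range of the high muscling families, with a mean log2 signal of 12.69 beside 12.97, 12.67 and 12.65 in sires 11, 2 and 7 and 12.21 and 12.19 in sires 16 and 5.

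The other EGLN1 probe sets, with mean signals of 1762 and 142, gave a muscling difference of 0.44 ± 0.12 and 0.41 ± 0.15. They placed sire 17 above sires 16 and 5 as the brightest set did, with mean log2 signals of 10.72 beside 10.56 and 10.40, and of 7.11 beside 6.89 and 6.82. They did not place sire 11 above sires 2 and 7, since its means of 10.73 and 7.20 were the lowest of the 3 families in both sets. Over all 24016 probe sets, the sire test passed in the brightest set alone (adjusted p = 0.00516, against 0.0504 and 0.538). In the set with a mean signal of 1762, sire 17 was level with sire 11 (10.72 beside 10.73) and below sires 2 and 7 (11.14 and 11.15). In the set with a mean signal of 142, sire 17 was at 7.11, beside 7.20 to 7.57 in the high muscling families. The higher EGLN1 level of sire 11 therefore rests on 1 of 3 probe sets. Sire 17 lay inside the range of the high muscling means in the brightest set and at its lower edge in the second. Without the progeny of sire 17 the sire test of EGLN1 missed the threshold (adjusted p = 0.0777).

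**Figure D2:**
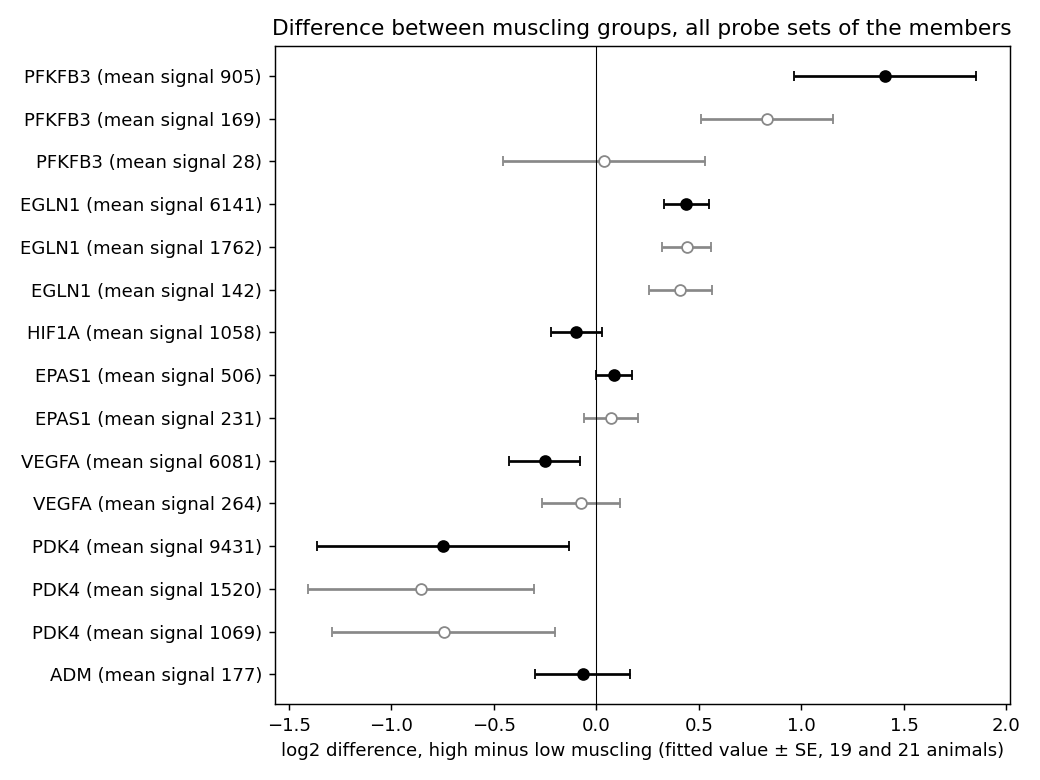
Fitted log2 difference, high minus low muscling, with its SE, for each of the 15 probe sets of the 7 measured genes. Filled points are the highest-mean probe set of a gene and open points the others. The 3 EGLN1 sets lay at 0.41 to 0.44, while the PFKFB3 sets lay at 1.41, 0.83 and 0.04, the last from a set with a mean signal of 28 that was below the detection limit.

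Of the 9 detected genes listed as HIF subunits and their regulators, members left out, CREBBP was called higher in high muscling (0.46 ± 0.10, limma adjusted p = 0.00304) and none was called lower. With sire means as samples CREBBP was not called. CREBBP encodes the coactivator CBP, which HIF recruits to its targets. The median difference of the list was -0.04, equal to the median over all detected genes. The sire test called 3 of the 9, CREBBP (adjusted p = 9.78e-04), OS9 (0.00359), a lectin that has been described to bind HIF1A, and ELOC (0.00745), the elongin C subunit of the ubiquitin ligase that removes HIF1A. The mean log2 signals of CREBBP resembled the EGLN1 pattern, at 11.05, 10.82 and 10.87 in sires 11, 2 and 7, 10.82 in sire 17 and 10.29 and 10.36 in sires 16 and 5. OS9 was lowest in the progeny of sires 11 and 17, at 8.55 and 8.85, and lay between 9.17 and 9.40 in the other 4 families.

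The genes most like EGLN1 between animals of 1 sire family, over the 6359 other detected genes and 40 animals with sire means removed, were TOB1 (r = 0.82), PTER (0.75), COQ3 (0.72), SLC12A2 (0.72) and KDM3A (0.71), and those most unlike it were RHOC (-0.76), PRL (-0.74) and GNAI2 (-0.71). These values are descriptive, since they were picked as the extremes of many. CUL2, the scaffold of the same ubiquitin ligase as ELOC, was the only detected gene of the regulator list to pass the permutation test with EGLN1 (r = 0.48, p = 0.00268, adjusted p = 0.0432; rho = 0.40, p = 0.0147, adjusted p = 0.132). Its r was 0.36 without the 2 animals farthest from the median, 0.07 with sire means kept, and without progeny 65 of sire 16 its adjusted p was 0.0859.

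EGLN1 also moved with the summed signal of macrophage and leukocyte markers. With sire means removed, this was the only 1 of 70 relations with markers and RNA quality to pass by Pearson's r. The summed signal of the macrophage and leukocyte markers (CD68, CD14, CSF1R, AIF1 and TYROBP detected, PTPRC below the detection limit at 44.9, 6 of 7 listed genes measured) ran from 377 through 813 to 1087 in high muscling and from 543 through 1277 to 2000 in low muscling. With sire means removed EGLN1 fell as this sum rose (r = -0.58, p = 3.1e-04, adjusted p = 0.0217 over 70 relations; rho = -0.59, p = 2.5e-04, adjusted p = 0.00875), and r was -0.63 without the 2 farthest animals. Within the families of 7 or 8 animals r was -0.69 for sire 11, 0.27 for sire 2, -0.77 for sire 16 and -0.84 for sire 5. AIF1 weighed most in this sum, with a mean signal of 503 beside 161 for CD68, the next. No marker was tested singly with EGLN1. The summed signal of the endothelial markers (7 of 9 measured genes detected, KDR and EGFL7 not) ran from 1864 through 2371 to 2816 in high muscling and from 2048 through 2957 to 3516 in low muscling, with the lowest family medians in sires 11 (2240) and 17 (2400). PECAM1 weighed most in the endothelial sum, with a mean signal of 1309 beside 472 for TEK, the next. The r of the endothelial sum with EGLN1 was -0.45 with sire means removed (p = 0.00604, adjusted p = 0.141) and -0.76 with them kept. The fibroblast markers (6 of 6 detected) also summed lower in high muscling, 4745 to 11650 with a median of 7964 against 7376 to 21951 with a median of 11933. Their r with EGLN1 was -0.39 with sire means removed (p = 0.0239, adjusted p = 0.185). The adipocyte markers (4 of 5 measured genes detected, LEP not) had medians of 806 in high and 1218 in low muscling. They went the other way with EGLN1, at r = 0.40 with sire means removed (p = 0.0179, adjusted p = 0.157) and -0.08 with them kept. The part of these cells in the EGLN1 differences was not tested.

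PFKFB3 had the widest spread between animals after PDK4 and the largest muscling difference of the 7 genes. Its enzyme sets the level of the strongest allosteric activator of phosphofructokinase. Its signal (gene ID 407183) ran from 357 through a median of 1207 to 3398 in high muscling, and from 151 through 315 to 2232 in low muscling, so the ratio of medians was 3.83. All 19 high muscling animals lay above the low muscling median and 11 of the 21 low muscling animals lay below every high muscling animal, yet the ranges overlapped over most of their length. The difference of high minus low was 1.41 ± 0.44 on the log2 scale, and it was 1.53 ± 0.41 without progeny 65 of sire 16.

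Of the low muscling animals, 10 of 21 lay inside the range of the high group, and PFKFB3 varied widely within families. The progeny of sire 11 had PFKFB3 signals of 435, 482, 746, 1510, 2097, 2577, 2611 and 3398, so that 3 of 8 lay apart from the other 5. Progeny 65 of sire 16, the animal with the stress gene signals, reached 2217, where its half-sibs had a median of 396 with it included. In sire 5 the highest animal had 2232, while the family median was 339. The 5 progeny of sire 17 had the lowest family level, with 151, 208, 216, 258 and 491. Mean log2 signals were 10.40, 9.59 and 10.02 in sires 11, 2 and 7 and 8.82, 7.93 and 8.92 in sires 16, 17 and 5. The sire differences within muscling groups did not pass the test (limma F test, adjusted p = 0.354), and in none of the 6 pairs of sires did PFKFB3 pass, the nearest being sire 17 below sire 5, with a difference of -0.99 ± 0.55 (adjusted p = 0.265). Sire 17 thus had the lowest mean of PFKFB3 beside the highest of EGLN1 among the low muscling sires, where the test separated the families for EGLN1 and not for PFKFB3.

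The second PFKFB3 probe set, with a mean signal of 169, gave a difference of 0.83 ± 0.32 and followed the first closely over the animals (r = 0.85 with sire means removed). The remaining set had a mean signal of 27.6, under the detection limit, and gave 0.04 ± 0.49. With the mean over all probe sets in place of the brightest, the difference was 0.76. With 1 sire family left out at a time it ran from 1.14 to 1.64.

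No other gene of glucose uptake and the glycolytic switch passed the muscling test. Of the 19 detected genes of that list, members left out, limma called 0, with 2 at an unadjusted p under 0.05, both higher in high muscling, and the median difference was 0.03. The other PFK-2 isoenzymes on the list differed by 0.03 ± 0.14 (PFKFB1), 0.11 ± 0.21 (PFKFB2) and 0.42 ± 0.40 (PFKFB4). Of these PFKFB4 passed the sire test (adjusted p = 0.0270), with a mean log2 signal of 8.89 in sire 11 against 8.02 and 6.86 in sires 2 and 7. ENO1, the enolase of glycolysis, also passed the sire test (adjusted p = 0.0254) and was lowest in sires 11 and 17, at 9.35 and 9.45, with 9.72 to 9.78 in the other 4. With sire means removed, 0 of the 19 genes passed the permutation test of correlation with PFKFB3 (median r = 0.13), and 2 had an unadjusted p under 0.05. These were the glucose transporter SLC2A4 (r = -0.37, p = 0.0228, adjusted p = 0.130) and PGK1 (r = 0.38, p = 0.0235, adjusted p = 0.130). The genes most like PFKFB3 over all detected genes were BTBD10 (r = 0.62), CD164 (0.62), GHR (0.60), the growth hormone receptor, TRA2A (0.59) and the nuclear receptor NR4A2 (0.58), and the most unlike were BTBD1 (-0.64), HOMER2 (-0.62) and C16H1orf21 (-0.62). The fibroblast marker sum had r = -0.32 with PFKFB3 with sire means removed and -0.50 with them kept, and the macrophage and leukocyte sum had -0.27 and -0.39. No marker sum passed the test with PFKFB3 with sire means removed, and the part of these cells in its muscling difference was not tested.

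VEGFA ran the other way to EGLN1 by sire. Its signal (gene ID 281572) ran from 2504 through a median of 5089 to 8681 in high muscling and from 3565 through 6945 to 9620 in low muscling. Only 4 of 19 high muscling animals lay above the low muscling median, the ratio of medians was 0.733, and the difference of high minus low was -0.25 ± 0.17. The sire differences within muscling groups passed the test (limma F test, adjusted p = 0.0215). The family medians were 4418 in sire 11, 5534 in sire 2 and 6183 in sire 7, and 7186 in sire 16, 4144 in sire 17 and 6913 in sire 5, so that sires 11 and 17 were the lowest of their groups. VEGFA missed the threshold when the family of sire 11 was left out (adjusted p = 0.309) and when that of sire 17 was (adjusted p = 0.0630). In pairs of sires, VEGFA was lower in sire 11 than in sire 2, with a difference of -0.51 ± 0.18 (adjusted p = 0.0455), and it differed from sire 7 by -0.59 ± 0.21 (adjusted p = 0.0647). The progeny of sire 17 had 3565, 4004, 4144, 7104 and 7447, so that 3 of its 5 animals lay below all 16 other low muscling animals, the lowest of which had 4625. The pairs of sire 17 with sires 16 and 5 missed the threshold (adjusted p = 0.102 and 0.126).

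A dimmer VEGFA probe set, with a mean signal of 264, did not show this order of families. Its mean log2 signals were 7.82, 8.07 and 7.99 in sires 11, 2 and 7 and 7.93, 8.12 and 8.06 in sires 16, 17 and 5, so sire 17 was highest instead of lowest among the low muscling families. It gave an adjusted p of 0.861 in the sire test over all probe sets and a muscling difference of -0.08 ± 0.19, although both sets moved together over animals within families (r = 0.75). The low VEGFA signal of sire 17 therefore rests on 1 of 2 probe sets.

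The signals of adrenomedullin lay over nearly the same range in both groups. ADM signal (gene ID 280713) ran from 77.2 through 183 to 249 in high muscling and from 40.0 through 184 to 301 in low muscling, a difference of -0.07 ± 0.23, or -0.16 ± 0.17 without progeny 65 of sire 16, and it did not pass the sire test (adjusted p = 0.911). The lowest ADM signal, 40.0, was again that of progeny 65 of sire 16, where the next of its family was 152.

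Among the 21 detected angiogenic ligands and receptors, members left out, RAMP2 was called lower in high muscling (a difference of -0.67 ± 0.16, limma adjusted p = 0.00810), 0 were called higher and the median difference was -0.03. RAMP2 turns the calcitonin receptor-like receptor into the adrenomedullin receptor of endothelium. Its mean log2 signal was 8.83, 9.08 and 9.13 in sires 11, 2 and 7 and 9.90, 9.28 and 9.75 in sires 16, 17 and 5. The sire test called VEGFB (adjusted p = 6.44e-05), FGF2 (0.00113), VEGFC (0.0365) and FLT4 (0.0455, or 0.0538 without progeny 65 of sire 16), and 22% of all detected genes. FLT4 had a mean signal of 80.6, and its mean log2 signal in sire 5, 5.71, was below the detection limit. VEGFB, which in muscle acts on the receptor FLT1, was lowest in the same 2 families as the bright VEGFA set, sires 11 and 17, at 9.75 and 9.85 and between 10.24 and 10.45 in the other 4. FGF2, another endothelial mitogen, was highest in sire 11, at 8.68 against 7.57 and 7.27 in sires 2 and 7.

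Over animals with sire means removed, FLT4, the receptor of VEGFC on lymphatic endothelium, passed the test of correlation with VEGFA (r = 0.52, p = 0.00164, adjusted p = 0.0354; rho = 0.37, p = 0.0314, adjusted p = 0.154; r = 0.39 without the 2 farthest animals). With the mean over all probe sets of both genes its r was -0.03, and the mean FLT4 signal was near the detection limit. RAMP1, which forms a receptor of calcitonin gene-related peptide, passed with ADM (r = -0.56, p = 0.00280, adjusted p = 0.0432; rho = -0.41, p = 0.0114, adjusted p = 0.132; r = -0.39 without the 2 farthest). Without progeny 65 of sire 16 the r of RAMP1 and ADM was -0.35 and its adjusted p was 0.210. Both relations also missed the threshold after quantile normalization (adjusted p = 0.0506 for each). The endothelial marker sum had r = 0.39 with VEGFA with sire means removed (p = 0.0149, adjusted p = 0.149) and 0.65 with them kept. The adipocyte marker sum had r = -0.41 with VEGFA with sire means removed (p = 0.0125, adjusted p = 0.148) and -0.09 with them kept. The 3′ to 5′ GAPDH ratio had r = -0.42 with VEGFA with sire means removed (p = 0.0271, adjusted p = 0.185) and -0.52 with them kept. Sire 11, lowest in mean log2 VEGFA signal, had the highest median GAPDH ratio. With EGLN1 the GAPDH ratio had r = 0.19 with sire means removed and 0.39 with them kept. The beta-actin ratio had the opposite signs. Its r with VEGFA was 0.31 with sire means removed (p = 0.0689, adjusted p = 0.301) and 0.29 with them kept. With EGLN1 the beta-actin ratio had r = -0.18 and -0.27. The part of these cells and of RNA quality in the VEGFA and EGLN1 differences was not tested.

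EGLN1 and VEGFA had r = -0.66 and rho = -0.68 over 40 animals with sire means kept, a description of animals that share 6 sires. Without the 2 animals farthest from the median of EGLN1 the value was -0.62. With sire means removed it was r = -0.35 (permutation p = 0.0482, adjusted p = 0.156 over 21 pairs) and rho = -0.34 (p = 0.0506, adjusted p = 0.177). Within single families r was -0.02 in sire 11, -0.11 in sire 2, 0.09 in sire 16 and -0.51 in sire 5. The relation was not detectable between half-sibs at this number of animals, and with the mean over all probe sets it was 0.05.

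**Figure D3:**
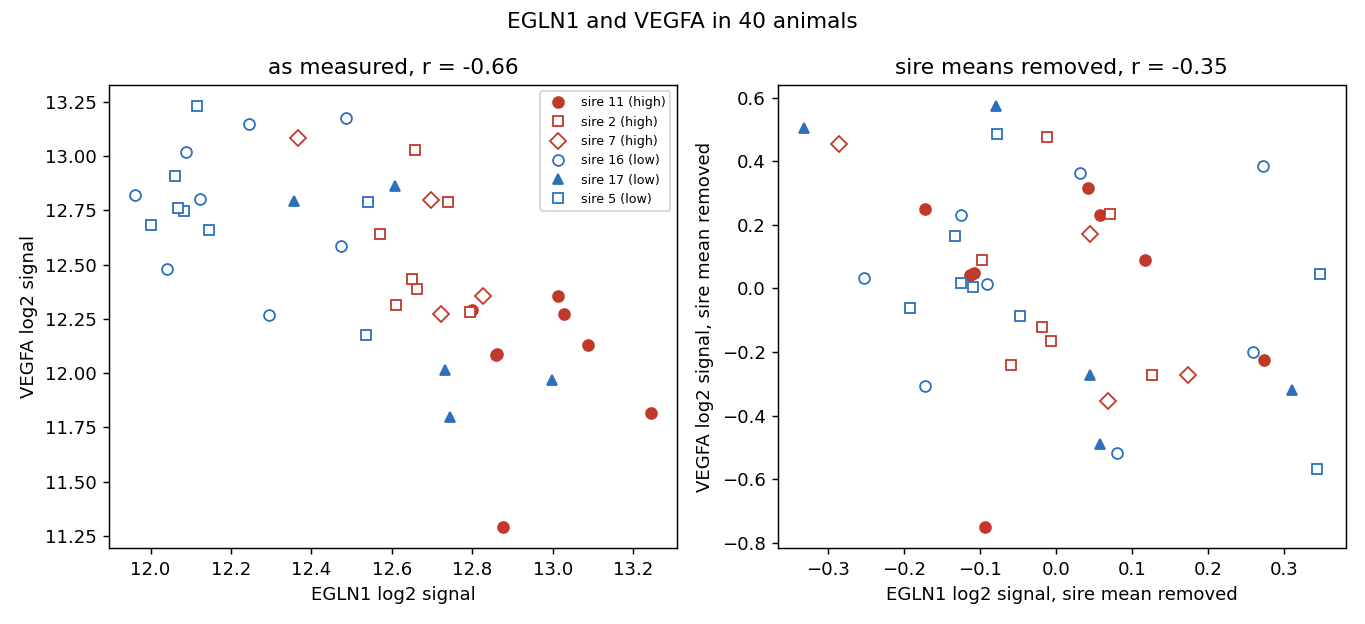
VEGFA against EGLN1 log2 signal in 40 animals, 1 symbol per sire, as measured on the left (r = -0.66) and with each sire's mean removed on the right (r = -0.35). On the left the progeny of sire 11 lay at high EGLN1 and low VEGFA and those of sires 16 and 5 at low EGLN1 and high VEGFA, and on the right no family order remains by construction.

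PFKFB3 and EGLN1 had r = 0.49 and rho = 0.43 with sire means kept, which the choice of both genes for a higher signal in high muscling favours. With sire means removed r was 0.41 (p = 0.0154, adjusted p = 0.108), 0.34 without progeny 65 of sire 16 and 0.24 without the 2 farthest animals. By family r was 0.44 in sire 11, -0.08 in sire 2, 0.29 in sire 16 and 0.81 in sire 5. With sire means removed, 0 of the 21 pairs of members passed the permutation test after adjustment, and 6 had an unadjusted p under 0.05.

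PDK4 differed between animals more than between groups. Its signal (gene ID 507367) ran from 97.6 through a median of 10058 to 15950 in high muscling and from 853 through 11103 to 14054 in low muscling, with a difference of -0.75 ± 0.61. The medians were close and the groups overlapped almost wholly. A few animals of 3 families lay far below. The progeny of sire 2 had 97.6, 1054, 3123, 7387, 10058, 11699 and 11729, those of sire 7 had 913, 3131, 6167 and 10498, and in sire 5 the lowest had 853 and 1716 while the other 6 lay between 10093 and 11932. The lowest animal of sires 11, 16 and 17 had 6970. The sire test did not pass (limma F test, adjusted p = 0.131), and the nearest pair was sire 11 above sire 2 by 1.88 ± 0.68 (adjusted p = 0.0567).

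The low values stood in all 3 probe sets. PDK4 had 3 probe sets, with mean signals of 9431, 1520 and 1069, which correlated at r = 0.94 to 0.97, and the same 7 animals were the 7 lowest in each. Their muscling differences were -0.85 ± 0.55 and -0.74 ± 0.54 for the dimmer sets. In muscle, PDK4 is known as a gene that fasting raises and feeding lowers.

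Some other genes of fat use moved with PDK4 from animal to animal. Of the 20 detected genes for pyruvate dehydrogenase and fuel choice, 4 passed the permutation test with PDK4 after sire means were removed, and the median r was 0.35, the highest of the 7 members, where the others ranged from -0.06 to 0.24. These relations were computed after the data were seen, as 108 relations of the members with the detected genes of their lists, of which 7 passed. The lists held 9 to 21 genes and were not the same for all members, so their medians are not strictly alike. The share of all detected genes that moved with PDK4 was not computed. The 4 of 20 are therefore not read as more than other genes would give. CPT1B, the muscle carnitine palmitoyltransferase that admits long-chain fatty acids to mitochondria, had r = 0.70 (p = 1e-05, the smallest that 100000 permutations can give, adjusted p = 0.00108) and rho = 0.69 (p = 3e-05, adjusted p = 0.00324), and r = 0.72 without the 2 farthest animals. It was positive in each family of 7 or 8 animals, at 0.58 in sire 11, 0.78 in sire 2, 0.54 in sire 16 and 0.87 in sire 5.

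ANGPTL4, a fasting-induced inhibitor of lipoprotein lipase, had r = 0.66 (p = 9.6e-04, adjusted p = 0.0259) and rho = 0.70 (p = 1.5e-04, adjusted p = 0.00648) with PDK4, and r = 0.66 without the 2 farthest animals. By family it was 0.67, 0.66 and 0.86 in sires 2, 16 and 5 and -0.44 in sire 11. The mean ANGPTL4 signal was 169, and its mean log2 signal in sire 2, 5.90, was just below the detection limit. PPARGC1A, the coactivator PGC-1 alpha of mitochondrial and fat oxidation genes, had r = 0.51 (p = 7.9e-04, adjusted p = 0.0259) and rho = 0.58 (p = 1.8e-04, adjusted p = 0.00648), and r = 0.43 without the 2 farthest. MLYCD, which removes the malonyl-CoA that inhibits CPT1B, had r = 0.57 (p = 2.2e-04, adjusted p = 0.0119) and rho = 0.42 (p = 0.0163, adjusted p = 0.135), and r = 0.54 without the 2 farthest. CPT1B was the only one of the 4 that still passed without the 2 farthest animals (adjusted p = 0.00540). ANGPTL4 and PPARGC1A missed the threshold when the progeny of sire 7 were left out (adjusted p = 0.0710 and 0.0517) and when those of sire 5 were (0.0872 and 0.199). All 4 passed without progeny 65 of sire 16.

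**Figure D4:**
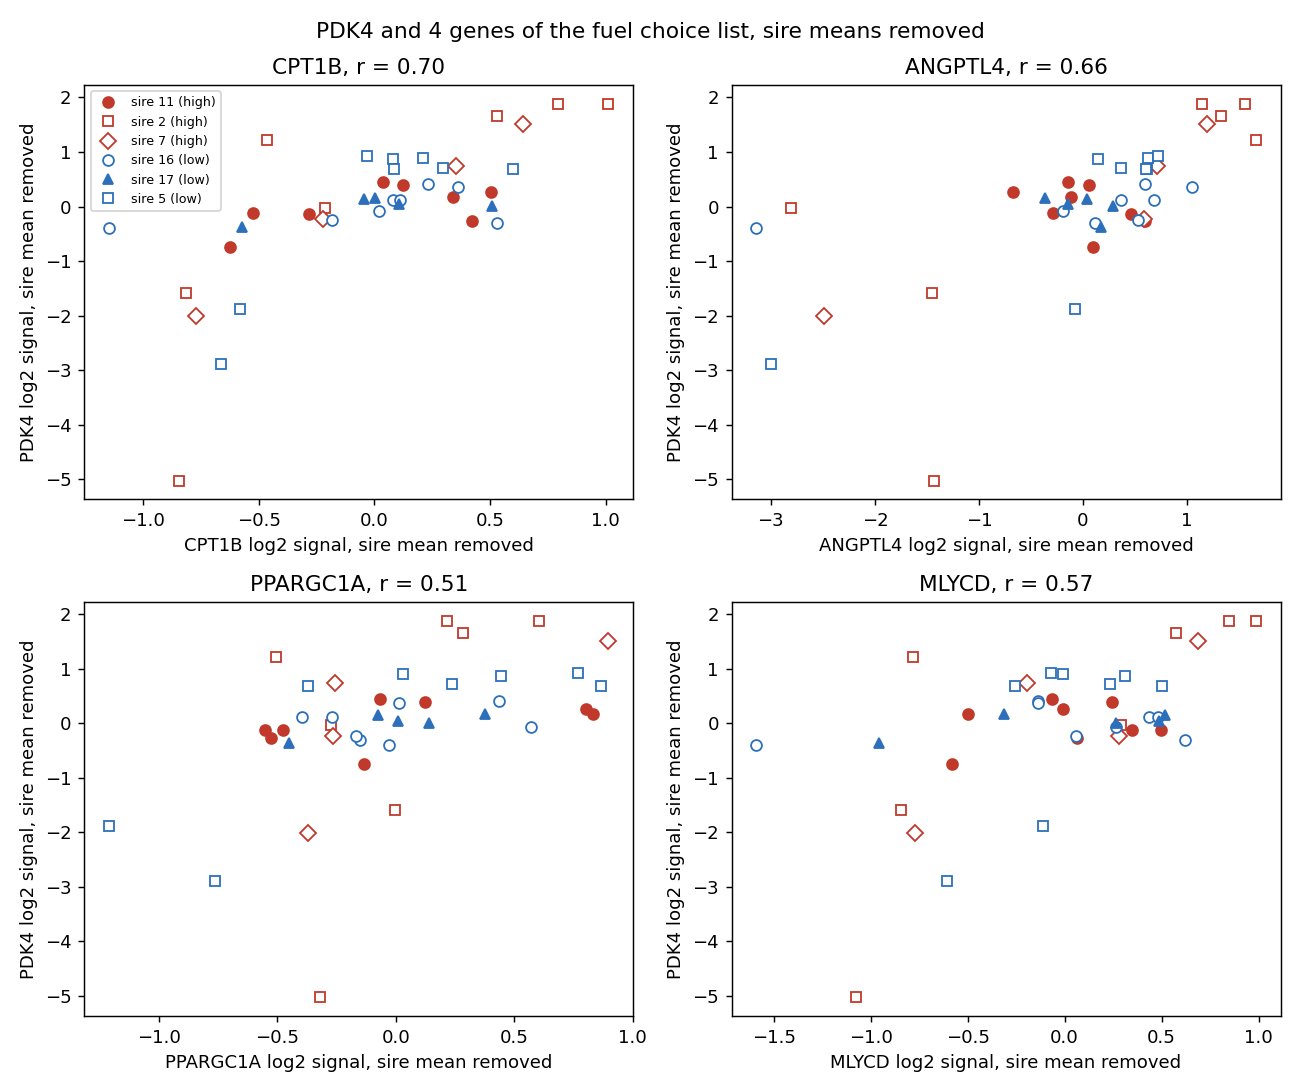
PDK4 log2 signal against that of CPT1B, ANGPTL4, PPARGC1A and MLYCD in 40 animals, each sire's mean removed from both axes, 1 symbol per sire. The points rise from left to right in each panel (r = 0.70, 0.66, 0.51 and 0.57), and the few animals far below on the PDK4 axis belong to sires 2, 7 and 5.

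PDK4 was also set against EGLN1 and the leukocyte and adipocyte markers. With sire means removed EGLN1 and PDK4 had r = -0.38 (p = 0.00277, adjusted p = 0.0582) and rho = -0.43 (p = 0.00280, adjusted p = 0.0588), both outside the threshold. Its r was -0.23 without the 2 farthest animals and -0.13 with sire means kept. By family r was -0.61, -0.10, -0.24 and -0.97 in sires 11, 2, 16 and 5, and in sire 5 the 2 animals with the lowest PDK4 had the highest EGLN1, 5958 and 5941 against 4100 to 4532. The macrophage and leukocyte marker sum had r = 0.54 (p = 0.00151, adjusted p = 0.0528) and rho = 0.59 (p = 4e-05, adjusted p = 0.00280) with PDK4. By family r was 0.96 in sire 11, 0.71 in sire 2, 0.03 in sire 16 and 0.83 in sire 5. The adipocyte marker sum had r = -0.43 (p = 0.0291, adjusted p = 0.185) and rho = -0.52 (p = 0.00285, adjusted p = 0.0665) with PDK4, sire means removed. The part of these cells in the PDK4 values was not tested.

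By muscling, 1 of the 20 fuel choice genes was called higher, PDHA1 (0.32 ± 0.08, limma adjusted p = 0.0124), the catalytic subunit of the pyruvate dehydrogenase that PDK4 phosphorylates, and 0 were called lower, at a median of -0.03. PDHA1 had mean log2 signals of 13.03, 13.16 and 13.16 in sires 11, 2 and 7 and 12.75, 12.91 and 12.74 in sires 16, 17 and 5, and did not pass the sire test (adjusted p = 0.434). The sire test called 5 others, PDK2 (adjusted p = 0.0107), DLAT (0.0190), the fatty acid transporter CD36 (0.0291), HADHA (0.0473) and PPARD (0.0475), the last 2 of which missed the threshold without progeny 65 of sire 16 (0.0524 and 0.0565). PDK2, a second kinase of the complex, was lowest in sire 11 at 10.45 and highest in sire 7 at 11.17, and CD36 was lowest in sires 11 and 17, at 11.05 and 11.66.

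Among 20 other detected genes that hypoxia induces in many cells, PLOD1 (0.27 ± 0.09, limma adjusted p = 0.0482), a collagen lysyl hydroxylase, and RORA (0.44 ± 0.13, adjusted p = 0.0255), a nuclear receptor, were called higher in high muscling and 0 were called lower, at a median of -0.06. The sire test called 6 of them, MIF (adjusted p = 0.00164), INSIG2 (0.00516), PLOD1 (0.0276), MXI1 (0.0309), BNIP3L (0.0344) and RORA (0.04997). Without progeny 65 of sire 16, PLOD1 missed the threshold by muscling (adjusted p = 0.0602) and RORA by sire (adjusted p = 0.0557). Their family orders differed. MIF, a cytokine, was lowest in sires 17 and 11 at 8.52 and 8.78 and highest in sire 5 at 9.69, while INSIG2, a regulator of sterol synthesis, was highest in sire 11 at 8.95 and lay between 8.18 and 8.54 in the other 5. Over the 5 lists the called genes by muscling were 1 of 9, 0 of 19, 1 of 20, 1 of 21 and 2 of 20, beside 7.78% of all detected genes, and the called genes by sire were 3, 2, 5, 4 and 6, beside 22%.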

How the data were processed

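RNA of the LM muscle of 40 sheep was hybridised to 1 GeneChip Bovine Genome array per animal. The authors deposited a table of MAS5 signal intensity per probe set, and every array had a 2% trimmed mean of 200, so the intensities were scaled to a common mean. No depth exists for arrays, and the number of animals limits the precision. The deposited signals were taken to log2 with no further normalization, and the brightest probe set by mean signal stood for a gene. Symbols came from the platform annotation, where 13292 of 24016 probe sets other than controls had 1 symbol, 86 had several and the rest had none, and 6360 genes reached the detection limit of 61.8, the median of the mean signals.

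Groups came from the labels. Muscling was fitted with limma 3.58.1 (R 4.3.3) over the 6360 genes, sires being entered as random blocks with an estimated correlation of 0.135, and sires within muscling groups with limma F tests and 6 pairwise contrasts. P-values were adjusted by the Benjamini-Hochberg method over all genes tested, with a threshold of 0.05. Those of the sire tests measure the spread between animals within families. Those of the muscling fit mix the spread between and within families, and muscling was replicated over 3 and 3 sires only. Correlations (Pearson and Spearman) used 100000 two-sided permutations of animals within sires (of all animals for the counts with sire means kept) in Python 3.11.15 with numpy 2.4.6, and were adjusted over their family of 21, 70 or 108 relations. Likeness of genes was Pearson's r with sire means removed, and the 5 highest and 3 lowest genes were named. Marker sums added the signals of all measured markers, those below the detection limit included, so the brightest marker weighed most in each sum. The scripts were tested on simulated data. The rule for named list genes took those called by muscling or by sire and the next nearest in the sire test, of which the text gives a part. The members, lists and markers were chosen with earlier results of these data known, and the correlations with list genes and the values without progeny 65 of sire 16 were added after the data were seen. The alternatives were a pseudocount of 16, a floor at 14.7 (the 20th percentile), centring on medians, quantile normalization, no detection filter, the mean over all probe sets, leaving out sire families or animals, no sire block and sire means as samples. A planned description of promoter motifs was not run, and no sequence was used here.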

Additional observations from a re-analysis of the deposited data

Results flagged for a closer look

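In 42 combinations of a measured gene and a sire family, 3 values, from 2 animals, lay farther from their family than Dixon's limit, where chance gives about 5% of combinations. The highest HIF1A signal of sire 16 was 1734, with a gap of 0.778 of the family's log2 range to the nearest animal at 1088. The lowest ADM signal of sire 16 was 40.0, with a gap of 0.776 to the nearest at 152. Both belonged to progeny 65, whose PFKFB3 signal of 2217 was also the highest of its family. The lowest PDK4 signal of sire 17 was 9726, with a gap of 0.721 to the nearest at 12684, although it was near the median of the other families.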

How the results depend on the processing

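Over the alternatives the log2 muscling difference ran from 0.76 to 1.64 for PFKFB3, 0.33 to 0.58 for EGLN1, -0.19 to -0.04 for HIF1A, 0.03 to 0.13 for EPAS1, -0.39 to -0.06 for VEGFA, -1.42 to -0.32 for PDK4 and -0.16 to -0.02 for ADM. No direction turned. The number of members called by muscling, which is no test of them since they were chosen for it and was 2 as reported, was 1 with the mean over all probe sets and without the progeny of sire 11, 2, 7 or 17, and 0 without those of sire 16 or 5 and with sire means as samples. Over all genes 495 were called, 29 without sire 16, 23 without sire 5, 1221 without sire 17, 1586 with no sire block and 0 with sire means as samples (886 at an unadjusted p under 0.05). Of the list genes, 6 were called by muscling, 2 with the mean over all probe sets, 0 without sire 16, 0 without sire 5, 15 without sire 17, 27 with no sire block and 0 with sire means as samples. The sire test called 2 members, 1 (EPAS1) with the mean over all probe sets, 1 without sire 11 and 0 without sire 17, and 2 throughout when single animals of sires 7 and 17 were left out. It called 20 list genes, 2 without sire 11, 11 without sire 17 and 14 to 20 without single animals. The correlations among members that passed numbered 0, 1 with median centring, 1 without sire 2, 3 without sire 17, 1 without sire 5, 2 with sire means kept and 2 in low muscling alone. Those with list genes numbered 7, 4 after quantile normalization, 12 with the mean over all probe sets, 4 without sire 11, 2 without sire 7, 4 without sire 17, 25 with sire means kept, 3 in high and 1 in low muscling alone, and 1 without the 2 farthest animals. Both counts with sire means kept are no test, since their permutations ignored sire and the values hold the muscling difference that shaped the choice of members. With the mean over all probe sets the r of EGLN1 and VEGFA turned to 0.0504 and that of FLT4 and VEGFA to -0.0283. Leaving out a family removes animals and a sire, and otherwise the cause was not tested. No paired analysis was possible because replicate numbers followed accession order and progeny numbers named single animals. Probe sets under the detection limit limited what could be read for the third PFKFB3 set.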

Other observations

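Immediate early and stress genes, which respond within minutes to stimulation or handling of a tissue, varied strongly between the animals. Of the 22 detected genes of this list, limma called FOSL2, a partner of FOS, higher in high muscling (1.25 ± 0.37, adjusted p = 0.0323) and 0 lower, with 3 lower at an unadjusted p under 0.05. The mean signal of FOSL2, 63.3, was only just above the detection limit. Its mean log2 signal lay above that limit in high muscling (6.35) and below it in low muscling (5.08). The FOSL2 call therefore rests on signals near the limit and is not read further. The median difference of the list was -0.40, beside -0.04 over all detected genes. The lowest were ATF3 (-1.05 ± 0.47, adjusted p = 0.175), EGR1 (-0.99 ± 0.51, adjusted p = 0.250) and MYC (-0.89 ± 0.31, adjusted p = 0.0736), at -0.89, -0.92 and -0.81 without progeny 65 of sire 16. The sire test called 0 of the 22, beside 22% of all detected genes.

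Progeny 65 of sire 16 had the highest signal of the 40 animals for FOS (14634, others up to 11201), JUN (13680, others up to 7872), EGR1 (4857, others up to 4486) and DNAJB1 (3229, others up to 493). It also had the lowest signal of DDIT4 (1560, others from 1883), a hypoxia and stress gene, and of MXI1 (319, others from 331), and the highest of EGLN2 (1239, others up to 1146), a second HIF prolyl hydroxylase. It was the highest or lowest of the 40 animals at 510 of 6360 detected genes, where the median animal was so at 290.5 and the range was 139 to 671. The median correlation of its array with the others was 0.91, the 7th lowest.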
